A study of Mus musculus with 302 samples.

Results

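The genes described here are 5 members of the circadian clock of mouse liver, namely the activator Arntl, the repressors Per2 and Per3, the nuclear receptor Nr1d1 and the output factor Dbp. They were chosen by name, with earlier results of these data known. Each had 1 probe on the array, so the 5 genes came to 5 of 23562 probes and 5 of 10838 named genes, and all 5 probes had a value in each of the 302 mice. The mice, all of 1 group, were F2 animals of both sexes from a cross between C57BL/6J and C3H/HeJ, both inbred, made in both directions. Chow of 4% fat was fed up to an age of 8 weeks. A Western-type diet followed for 12 weeks, in which fat made up 42% and cholesterol 0.15%, and all mice were killed at 20 weeks after fasting for 12 h. Liver RNA of 1 mouse, labelled with Cy3, was hybridised on each 2-colour array together with a Cy5-labelled pool made from equal shares of all the livers. No sex, genotype, direction of the cross or hour of death was given for a mouse.

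Arntl, also called BMAL1, pairs with CLOCK or NPAS2 and switches on genes that carry E-box elements, among them the Per and Cry genes, Nr1d1 and Dbp. PER and CRY proteins then hold back the same activators, which closes the main loop, and NR1D1 represses Arntl through ROR response elements while ROR proteins activate it, which forms a further loop. DBP binds D-box elements and passes the rhythm on to genes of liver metabolism. In livers of mice kept in light and dark, the transcripts of Nr1d1, Dbp, Per3 and Per2 are known to peak one after another during the day and early evening and Arntl is known to peak about opposite to them.

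The start regions of 3 of the genes are shown because letters of a clock element, or of a variant of one, were found in them. Windows of 250 bases before to 50 bases after a start site were taken from RefSeq on GRCm38.p6, and the table used here had windows for Arntl, Dbp, Per3 and Nr1d1. Letters searched on both strands were CACGTG (E-box), CACGTT (an E-box variant), TTATGTAA and TTACGTAA (D-box) and AGTAGGTNA (the core of a ROR response element), none of which overlapped another in the windows shown. Capitals mark the matches. Of the 2 Arntl windows, the one at chr7:113207261-113207560 on the plus strand holds AGTAGGTNA at 2 places, starting 8 bases before and 28 bases after the start site.
Arntl: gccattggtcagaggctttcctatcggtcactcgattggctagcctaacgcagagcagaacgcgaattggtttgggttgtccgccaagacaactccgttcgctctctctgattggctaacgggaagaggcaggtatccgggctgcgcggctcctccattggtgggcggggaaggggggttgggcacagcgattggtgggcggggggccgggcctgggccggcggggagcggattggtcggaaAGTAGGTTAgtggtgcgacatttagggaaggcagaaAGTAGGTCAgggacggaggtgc
The Per3 window lies at chr4:151044616-151044915 on the minus strand and holds TTATGTAA at 2 places, starting 205 and 158 bases before the start site.
Per3: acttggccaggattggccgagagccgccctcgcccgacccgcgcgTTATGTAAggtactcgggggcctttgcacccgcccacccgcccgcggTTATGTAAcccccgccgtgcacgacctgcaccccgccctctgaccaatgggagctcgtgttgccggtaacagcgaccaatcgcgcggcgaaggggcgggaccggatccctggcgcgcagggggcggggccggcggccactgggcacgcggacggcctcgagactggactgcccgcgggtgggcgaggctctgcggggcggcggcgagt
The Nr1d1 window lies at chr11:98775328-98775627 on the minus strand and holds CACGTT 28 bases before the start site, where it reads as its complement on the strand printed.
Nr1d1: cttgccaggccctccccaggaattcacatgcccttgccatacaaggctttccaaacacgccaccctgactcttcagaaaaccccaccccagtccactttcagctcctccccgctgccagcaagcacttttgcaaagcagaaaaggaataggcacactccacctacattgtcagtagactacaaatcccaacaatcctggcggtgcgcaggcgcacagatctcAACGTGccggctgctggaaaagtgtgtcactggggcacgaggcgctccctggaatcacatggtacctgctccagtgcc
In the Dbp window none of these letters was found. Of 32851 such windows in the table, 7.15% held CACGTG, 4.68% CACGTT, 0.938% TTATGTAA, 0.119% TTACGTAA and 0.591% AGTAGGTNA. Of the 27025 genes with a window, the shares with a match in any window were 8.09%, 5.44%, 1.11%, 0.126% and 0.699%, in the same order. Among the 27 genes of the clock list described further on that had a window, CACGTG stood in 6 (Bhlhe41, Cipc, Cry1, Lonrf3, Per1 and Tef), CACGTT in Cry1, Nr1d1 and Rorb, TTATGTAA in Per3 alone and AGTAGGTNA in Arntl and Nfil3. The genes themselves lie at chr7:113178471-113314126 (Arntl), chr7:45705100-45710203 (Dbp), chr1:91415977-91459351 (Per2), chr4:150997018-151044707 (Per3) and chr11:98767932-98775377 (Nr1d1) on that assembly.

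The values were taken to be log10 ratios, with the mouse over the pool. The base and direction are likely but not stated, and a correlation does not depend on the base or on a turn of all signs. Since the pool was made of the same livers, a ratio gives no level, so the tissue could not be checked through its markers and levels of different genes could not be compared. The SD over the probes of an array ran from 0.0697 to 0.258 with a median of 0.0975, and 6 arrays lay above 1.5 times that median. The mice fell into 2 clusters by the Y-linked gene Eif2s3y, with medians of 0.195 in 160 mice and -1.73 in 142 mice, and 4 mice lay within 0.4 of the threshold of -0.8. Mouse numbers in the labels ran from 51 to 362, and many probes shifted between 212 and 213. Both splits served as blocks, with 65 and 77 mice in the lower Eif2s3y cluster (numbers above 212 and up to 212) and 78 and 82 in the upper one. The Eif2s3y clusters were not given a sex, and genes were not tested between them. Block means were removed before SDs and correlations were taken, and p-values treat mice as independent although mice with neighbouring numbers were alike, as shown further on.

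The activator Arntl, the repressor Per2 and the nuclear receptor Nr1d1 varied widely from liver to liver, whereas Dbp varied about as much as a typical probe and Per3 hardly at all. Arntl had a lowest value of -0.531, a median of -0.00451 and a highest value of 0.542 on the log10 scale over the 302 livers, so its highest liver held 11.8 times the RNA of its lowest. With block means removed its SD was 0.213 (95% interval from 1000 draws of the mice with replacement, 0.197 to 0.226), and the livers at the 95th and 5th percentiles differed 5.34-fold. Of all probes, 98.0% had a smaller SD. Nr1d1 ran from -0.922 through a median of -0.0962 to 0.384, with an SD of 0.188 (0.168 to 0.205) and 97.0% of probes below it. Its livers reached farther down than up, and its 95th to 5th percentile ratio was 5.04-fold. Per2 ran from -0.552 through a median of 0.0101 to 0.295, with an SD of 0.163 (0.148 to 0.175) and a percentile ratio of 3.50-fold, and 95.4% of probes were narrower. Like Nr1d1, Per2 had its farthest livers on the low side.

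Dbp ran from -0.202 through a median of -0.0149 to 0.195, with an SD of 0.0658 (0.0601 to 0.0708) and a percentile ratio of 1.65-fold. This was close to the median SD of all probes, 0.0616, and 55.1% of probes were narrower. Per3 ran from -0.147 through a median of 0.00512 to 0.107, with an SD of 0.0326 (0.0287 to 0.0359) and a percentile ratio of 1.28-fold. Only 7.78% of probes were narrower, and the lower quartile of all probes was 0.0443. In a gene this narrow the part of the SD that comes from the array was not measured, because no array was repeated. In whole liver, fewer cells of a type and less RNA per cell cannot be told apart, here or in any result that follows.

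**Figure D1:**
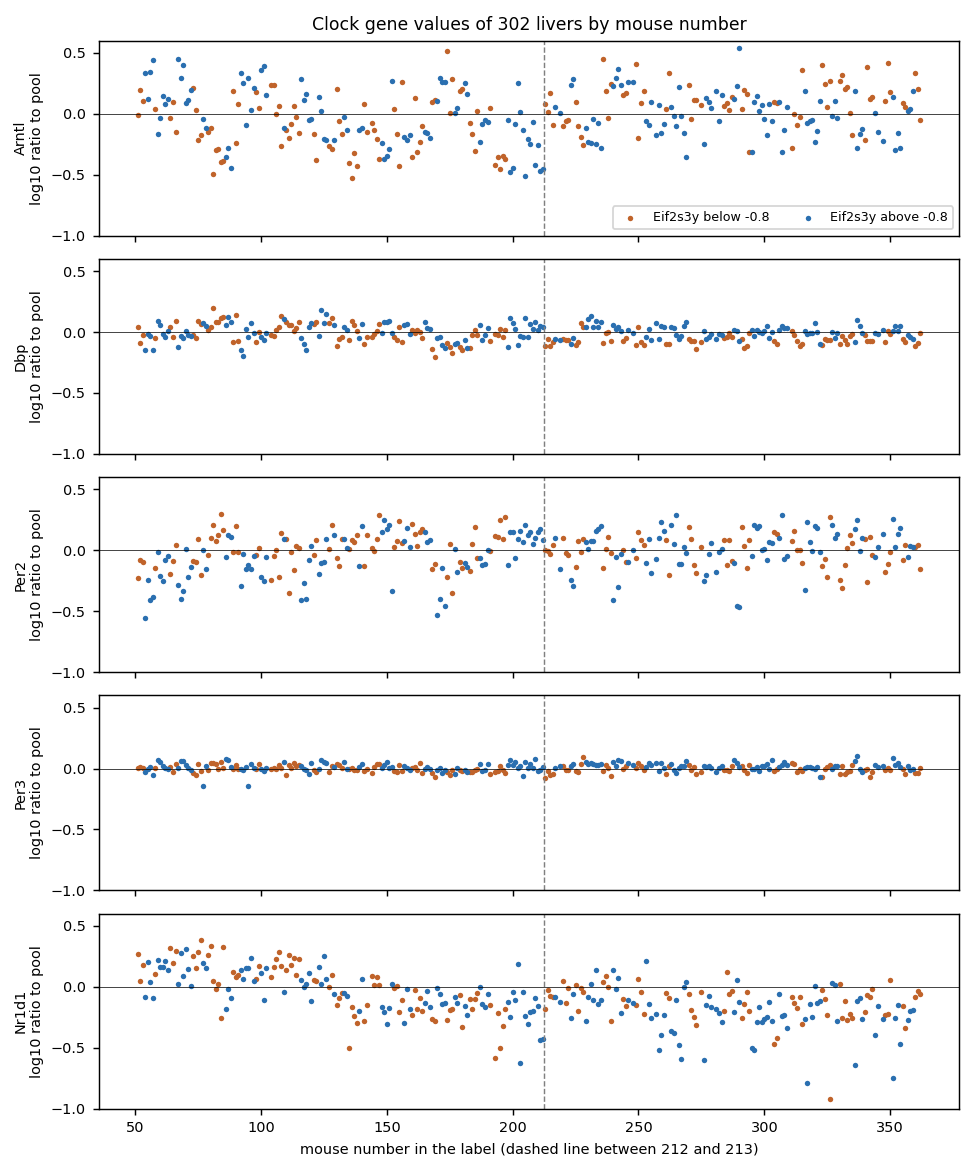
Log10 ratio to the pool (y axis, the same scale in each panel) of Arntl, Dbp, Per2, Per3 and Nr1d1 in 302 livers against the mouse number (x axis); each point is 1 liver, coloured by Eif2s3y below or above -0.8, and the dashed line parts numbers up to 212 and above 212. Arntl spans -0.531 to 0.542 and swings over short runs of numbers, Nr1d1 drifts downwards, and Per3 stays within -0.147 to 0.107.

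The livers at both ends of Arntl show how the genes go together. In mouse 136, which had the lowest Arntl (-0.531), Dbp was at 0.0925, Per2 at 0.0833, Per3 at 0.00525 and Nr1d1 at -0.166. Its Dbp was above that of 94.4% of mice, its Per2 above 67.5%, its Per3 above 50% and its Nr1d1 above 34.4%. In mouse 290, which had the highest Arntl (0.542), Per2 was at -0.462, Dbp at -0.0700, Per3 at 0.0124 and Nr1d1 at -0.128. Its Per2 was above that of only 0.662% of mice and its Dbp above 21.9%, while Per3 (56.6%) and Nr1d1 (43.7%) lay in the middle.

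Over all livers, the activator ran against its repressor Per2 and the output gene Dbp, and 10 pairs of genes were correlated in this way. Arntl and Per2 had Pearson's r = -0.644 (95% interval, made in the same way, -0.708 to -0.576) and Spearman's rho = -0.638, each with a permutation p of 1e-05, the smallest that the 100000 shuffles within blocks can give. The limma adjusted p over all probes was 2.17e-33, r was -0.632 with the 2 mice farthest from the Arntl median left out, and r ran from -0.779 to -0.453 within the 4 blocks. Arntl and Dbp had r = -0.643 (-0.697 to -0.577) and rho = -0.652 (permutation p = 1e-05 for each, limma adjusted p = 4.24e-33). This relation was -0.641 without the 2 farthest mice and between -0.715 and -0.501 within blocks. So livers rich in Arntl were poor in Per2 and Dbp in every block.

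Per3 ran against Arntl less closely, with r = -0.261 (-0.358 to -0.154; permutation p = 1e-05), rho = -0.238 (p = 3e-05) and a limma adjusted p of 0.000148. The value was -0.256 without the 2 farthest mice and ran from -0.351 to -0.0375 within blocks, and the relation no longer passed in mice above 212 alone (r = -0.187, adjusted p = 0.143). Nr1d1, which is known to repress Arntl, ran weakly with it, with r = 0.188 (0.0746 to 0.307; permutation p = 0.00115), rho = 0.197 (p = 0.00065) and a limma adjusted p of 0.00909. Within blocks this relation ran from -0.0930 to 0.438, without the 2 farthest mice it was 0.204, and in the mice numbered above 212 alone it was -0.0146. The positive relation between Arntl and Nr1d1 was thus seen in the blocks up to 212 (r = 0.205 and 0.438). In the blocks above 212 it was -0.0930 and 0.0365, weak and of either sign.

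Dbp rose with both repressors, Per2 and Per3. Dbp and Per3 had r = 0.487 (0.382 to 0.590) and rho = 0.525 (permutation p = 1e-05 for each, limma adjusted p = 2.17e-16), with 0.483 without the 2 farthest mice and 0.444 to 0.645 within blocks. Dbp and Per2 had r = 0.449 (0.363 to 0.535) and rho = 0.456 (permutation p = 1e-05 for each, limma adjusted p = 4.78e-14), with 0.454 without the 2 farthest mice and 0.228 to 0.612 within blocks. Per2 and Per3, the repressors themselves, did not pass together, with r = 0.124 (0.0232 to 0.231; permutation p = 0.0377), rho = 0.139 (p = 0.0164) and a limma adjusted p of 0.0978. Their r was 0.113 without the 2 farthest mice and -0.0880 to 0.199 within blocks.

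Nr1d1 took no single side. It ran against Per2, with r = -0.286 (-0.383 to -0.173) and rho = -0.266 (permutation p = 1e-05 for each, limma adjusted p = 1.14e-05), -0.293 without the 2 farthest mice and -0.399 to -0.218 within blocks. It ran with Dbp, with r = 0.194 (0.0993 to 0.286; permutation p = 0.00095), rho = 0.181 (p = 0.00205) and a limma adjusted p of 0.00266, 0.203 without the 2 farthest mice and -0.0479 to 0.409 within blocks. With Per3 its r was 0.0607 (-0.0545 to 0.176; permutation p = 0.283), rho 0.133 (p = 0.0202) and limma adjusted p 0.392, with 0.105 without the 2 farthest mice and -0.0461 to 0.296 within blocks. For differences between neighbours, an alternative chosen after seeing the data, neither Per2 and Nr1d1 (r = -0.206, p = 0.0822) nor Dbp and Nr1d1 (0.180, p = 0.0521) passed by permutation. A slope that differed between the 4 blocks was found in none of the 10 pairs when the gene named first in the order Arntl, Dbp, Per2, Per3, Nr1d1 was the covariate (lowest limma adjusted p 0.0712). With the other gene of each pair as the covariate it was found in the pair of Arntl and Nr1d1 (adjusted p = 0.0267). The share of all probes whose slope differed between blocks was 2.99% on Arntl, 8.0% on Dbp, 1.12% on Per2, 18.1% on Per3 and 7.8% on Nr1d1.

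**Figure D2:**
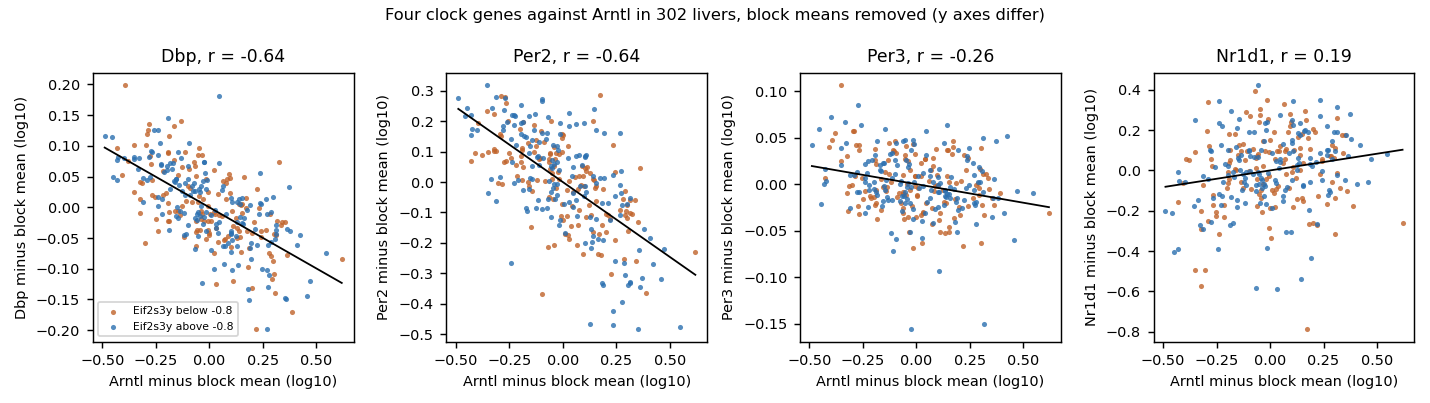
Dbp, Per2, Per3 and Nr1d1 (y axes, log10 ratio minus the block mean, with different scales) against Arntl (x axis, likewise) in 302 livers; points are livers, coloured by Eif2s3y below or above -0.8, and lines are straight fits. Dbp and Per2 fall as Arntl rises (r = -0.643 and -0.644), Per3 falls with a wide scatter (r = -0.261), and Nr1d1 rises slightly (r = 0.188).

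Taken jointly, the other 4 genes accounted for 62.1% of the variance of Dbp, 60.0% of that of Arntl, 46.7% of that of Per2, 27.1% of that of Nr1d1 and 25.8% of that of Per3, all with block means removed. With the remaining 3 genes held constant, Arntl kept a partial r of -0.524 with Dbp and of -0.407 with Per2. The relation of Arntl to Per3 shrank to 0.0458 when Dbp, Per2 and Nr1d1 were held constant. In contrast, Dbp and Nr1d1 had a partial r of 0.445, above their plain r of 0.194, and Dbp and Per3 kept 0.438. The remaining partial values were 0.257 for Arntl and Nr1d1, 0.205 for Dbp and Per2, -0.278 for Per2 and Nr1d1, -0.121 for Per2 and Per3 and -0.110 for Per3 and Nr1d1. A first axis through the standardized genes held 47.3% of their variance and set Arntl (loading 0.571) against Dbp (-0.545), Per2 (-0.50) and Per3 (-0.345). The second axis held 25.9% and was mainly Nr1d1 (loading -0.747). These are descriptions of the 302 livers, with no test.

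A bend was called in the relation of Nr1d1 to Arntl. Fitted Nr1d1 was -0.222 where Arntl was -0.4, -0.0633 where Arntl was 0 and -0.105 where Arntl was 0.4, with the top of the curve at an Arntl of 0.116. The square of Arntl had a coefficient of -0.627 ± 0.181 (SE, limma adjusted p = 0.0268), against a background of 5.29% of all probes with a called curve, 2.96% upwards and 2.33% downwards. It raised the variance of Nr1d1 that Arntl accounted for to 7.27%, against 3.53% for a straight line. No bend was called for Dbp (adjusted p = 0.222), Per3 (0.298) or Per2 (0.470). The call for Nr1d1 was lost without the 6 arrays of wide SD, where the coefficient was -0.556. It was lost also with the first principal component of all probes as a covariate, where the coefficient was -0.517, limma called 0 of 23511 probes and 1395 had an unadjusted p under 0.05.

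Livers of mice with neighbouring numbers had like values of Arntl, Nr1d1, Per2 and Dbp. Among the 217 pairs of mice of a block whose numbers differed by 1, which took in 292 mice, r between the pair was 0.498 for Arntl, 0.447 for Nr1d1, 0.427 for Per2 and 0.388 for Dbp. Each had a permutation p of 1e-05, the smallest possible. For Per3 it was 0.133 (permutation p = 0.0593). The median of all probes was 0.121, and 0.668% of probes reached the value of Arntl, 1.40% that of Nr1d1, 1.84% that of Per2, 3.12% that of Dbp and 46.0% that of Per3. At a difference of 5 numbers r was 0.174 for Arntl, 0.181 for Dbp, 0.0766 for Per2 and 0.316 for Nr1d1, and at 10 numbers 0.0929, 0.173, 0.149 and 0.220. All 4 were lower at 5 numbers than at 1, and Nr1d1 was the highest at 5 and at 10. At 20 numbers Arntl had -0.144, Dbp -0.0519, Per2 -0.142 and Nr1d1 0.201. The fall of Nr1d1 along the numbers, given further on, was not removed here, and its part in these values was not tested. What neighbouring numbers shared, such as litter, day or hour of death, was not in the labels.

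**Figure D3:**
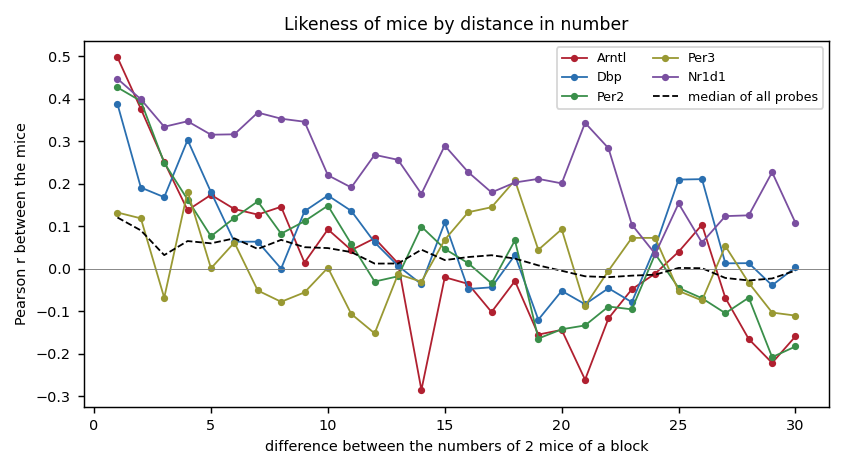
Pearson r between mice of a block (y axis, block means removed) against the difference of their numbers (x axis, 1 to 30) for the 5 genes, with the median of all probes as a dashed line; each point is the r over all pairs of mice at that difference. Arntl, Nr1d1, Per2 and Dbp start at 0.388 to 0.498, above the median of 0.121, and Nr1d1 is still at 0.220 at a difference of 10.

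Mice numbered above 212 were set against those up to 212, with the Eif2s3y cluster as a covariate. Nr1d1 averaged -0.176 ± 0.181 above 212 and -0.0238 ± 0.196 up to 212 (SD, n = 143 and 159), a difference of -0.151 ± 0.0216 (SE) or a ratio of 0.706 (limma adjusted p = 1.19e-10). Arntl averaged 0.0409 ± 0.188 above 212 and -0.0592 ± 0.240 up to 212, 1.26-fold higher (difference 0.100 ± 0.0250, adjusted p = 0.00019). Dbp averaged -0.0260 ± 0.0574 above 212 and -0.00205 ± 0.0790 up to 212 (difference -0.0249 ± 0.00779, adjusted p = 0.00304). The groups overlapped widely in all of these genes. Per2 (difference 0.0336, adjusted p = 0.108) and Per3 (0.00321, adjusted p = 0.472) did not pass. Such differences were common, since 33.9% of all probes were called higher and 30.6% lower above 212, 64.5% in all, so 3 of 5 is close to the share of all probes.

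Means within each Eif2s3y cluster were as follows. In the lower cluster Arntl averaged 0.0952 ± 0.178 above 212 (n = 65) and -0.102 ± 0.225 up to 212 (n = 77). In the upper cluster it averaged -0.00440 ± 0.185 (n = 78) and -0.0188 ± 0.248 (n = 82). Dbp likewise averaged -0.0630 ± 0.0433 above 212 and -0.00345 ± 0.0789 up to 212 in the lower cluster, but 0.00483 ± 0.0490 and -0.000731 ± 0.0795 in the upper one. Nr1d1 was lower above 212 in both clusters, with -0.135 ± 0.157 against -0.0101 ± 0.216 in the lower and -0.211 ± 0.193 against -0.0367 ± 0.175 in the upper one. Whether the shifts differed between the clusters was not tested. The spread of Arntl and of Dbp was also narrower above 212 in both clusters. So was that of Per2, with an SD of 0.122 against 0.146 in the lower cluster and 0.170 against 0.196 in the upper one.

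Within blocks Nr1d1 fell along the mouse numbers by 0.213 ± 0.0204 per 100 numbers (slope ± SE, r = -0.515, limma adjusted p = 2.48e-19). Within single blocks its r with the number was -0.266 and -0.290 above 212 and -0.748 and -0.674 up to 212. Per2 rose by 0.0895 ± 0.0200 per 100 numbers (r = 0.25, adjusted p = 6.94e-05) and Arntl fell by 0.0894 ± 0.0265 (r = -0.191, adjusted p = 0.00336). Their block values were not of 1 sign: -0.477 to 0.221 for Arntl and -0.144 to 0.459 for Per2. Dbp (slope -0.0149, adjusted p = 0.150) and Per3 (-0.00845, adjusted p = 0.0956) did not pass. Their block r ran from -0.409 to 0.0927 for Dbp and from -0.372 to 0.0317 for Per3. For both the lowest was in the lower Eif2s3y cluster up to 212. Over all probes 19.3% had a called rise and 20.1% a called fall, 39.4% in all, beside 3 of the 5 genes. With the mouse number as a further covariate, an alternative chosen after seeing the data, the relation of Arntl and Nr1d1 was 0.106 and no longer passed.

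Other clock genes were taken from a list of 42 genes by role, of which 33 were measured, 32 of them besides the gene in question. The list, too, was chosen with earlier results of these data known. Against Arntl, 8 of 32 were called higher and 17 lower, while over all 23511 probes 8.85% were called higher and 9.83% lower. The median absolute r of the list was 0.312 and that of all probes 0.0689. Against Per2, 14 were higher and 6 lower (13.0% and 14.9% of all probes), with a median absolute r of 0.271 beside 0.0880. Against Nr1d1, 3 were higher and 17 lower (19.3% and 18.9% of all probes), with 0.193 beside 0.102. Against Dbp, 13 were higher and 9 lower (28.3% and 16.7% of all probes), with 0.244 beside 0.118. Against Per3, 10 were higher and 6 lower (30.8% and 19.2% of all probes), and here the list's median absolute r of 0.128 lay at that of all probes, 0.130. Thus the count for Per3 was no higher than the background, 16 of 32 beside 50%, whereas 25 of 32 for Arntl stood beside 18.7%, 20 of 32 for Per2 beside 27.9%, 20 of 32 for Nr1d1 beside 38.2% and 22 of 32 for Dbp beside 45.1%. In the mice above 212 alone, limma called 6 higher and 11 lower with Arntl and 1 higher and 9 lower with Nr1d1.  Over all probes fewer were called in those mice too, as given further on, so these counts are not set against the shares above. For Nr1d1 the count lower was 12 with the mouse number as a covariate, where fewer of all probes were called as well.

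Among the activators, Npas2, the partner that can stand in for CLOCK, rose with Arntl (r = 0.223, adjusted p = 0.00157) and with Per3 (0.178, adjusted p = 0.00580), and it fell with Dbp (-0.140, adjusted p = 0.0382). Above 212 alone its r with Dbp was 0.122, and its relation to Per3 no longer passed without the 6 arrays of wide SD. Clock itself passed with none of the 5 genes, and its r with Arntl was 0.0800 (adjusted p = 0.388). Among the repressors, Per1 fell with Arntl (r = -0.391, adjusted p = 3.52e-10) and rose with Dbp (0.237) and Per2 (0.177), the value with Per2 being -0.0580 above 212 alone. With Dbp its block r was 0.0311 and 0.0507 above 212, against 0.298 and 0.355 up to 212. With Arntl it was -0.206 and -0.191 above 212, against -0.432 and -0.555 up to 212. Cry1, whose transcript is known to peak later than those of the Per genes, rose with Arntl (r = 0.461, adjusted p = 9.46e-15) and fell with Nr1d1 (-0.397, adjusted p = 2.37e-11) and Dbp (-0.281). By its sign with Arntl, Cry1 was thus on the side of the activator, unlike Per1 and Per2. Its relation to Per2 itself did not pass (r = -0.0663, adjusted p = 0.417) and ran from -0.177 to 0.108 within blocks. The E-box repressors Bhlhe40 and Bhlhe41 fell with Arntl (r = -0.328 and -0.167, adjusted p = 3.69e-07 and 0.0250), and Bhlhe40 rose with Per2 (0.505, adjusted p = 3.53e-18). Their slopes on Arntl differed between blocks (adjusted p = 0.0352 and 0.0437), with r from -0.564 to 0.133 for Bhlhe40 and from -0.430 to 0.0717 for Bhlhe41.

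Of the nuclear receptors, Nr1d2, the close relative of Nr1d1, fell steeply with Arntl (r = -0.661, adjusted p = 8.34e-36) and rose with Per2 (0.501) and Dbp (0.422). Its relation to Nr1d1 did not pass (r = -0.0571, adjusted p = 0.462) and ran from -0.278 to 0.275 within blocks. The other probe for Nr1d2 had r = -0.365 with Arntl and -0.192 with Nr1d1. Rora, an activator of ROR response elements, rose with Arntl (r = 0.295, adjusted p = 8.60e-06) and fell with Dbp (-0.352), Nr1d1 (-0.252), Per2 (-0.181) and Per3 (-0.145). Rorb passed with Dbp (0.152) and Per3 (0.191), and its r with Arntl was -0.0766 (adjusted p = 0.413).

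Of the PAR bZIP factors, relatives of DBP that bind the same D-box, Tef fell with Arntl and rose with Dbp, while the pooled values of Hlf went the same way but did not hold in all mice. Tef had r = -0.383 with Arntl (adjusted p = 1.33e-09) and 0.372 with Dbp (adjusted p = 2.15e-09). Hlf had -0.195 with Arntl (adjusted p = 0.00641), 0.156 with Dbp (0.0184) and 0.386 with Per2 (4.69e-10). In mice above 212 alone its r with Dbp was -0.0978, and within blocks its r with Arntl ran from -0.466 to 0.0695, with slopes that differed (adjusted p = 0.0430). Nfil3, which competes with them for the D-box and represses it, rose with Arntl (r = 0.461, adjusted p = 9.28e-15) and fell with Dbp (-0.323, adjusted p = 2.17e-07) and Per2 (-0.293, adjusted p = 6.10e-06). Nfil3 and Tef were opposite in sign with Arntl and with Dbp in every block. Among kinases and ligase adaptors, which set how long PER proteins last, Csnk1d and Csnk1e both fell with Dbp and Per3. Csnk1d had r = -0.293 with Dbp (limma adjusted p = 3.44e-06), -0.186 with Per3 (0.00350) and -0.171 with Nr1d1 (0.0100). Csnk1e had -0.235 with Per3 (adjusted p = 0.000167) and -0.155 with Dbp (0.0188). Btrc and Gsk3b passed with none of the 5 genes.

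Among clock outputs, Wee1 was the gene of the list with the largest absolute r with Arntl and with Per2. Wee1, a kinase that delays entry into mitosis, had r = -0.701 with Arntl (adjusted p = 9.75e-42) and 0.717 with Per2 (adjusted p = 4.59e-44). Usp2, a ubiquitin protease, had r = -0.594 with Arntl (adjusted p = 4.16e-27), 0.656 with Per2 (1.46e-34) and -0.603 with Nr1d1 (2.55e-28). Both genes followed Per2 and opposed Arntl. Nampt, which makes the NAD precursor that feeds back on the clock, had -0.449 with Arntl, 0.546 with Per2 and -0.568 with Nr1d1 (adjusted p = 6.58e-14, 8.27e-22 and 1.37e-24). Gys2, the liver glycogen synthase, had -0.542 with Arntl (adjusted p = 1.96e-21), and Alas1, the first enzyme of haem synthesis, had -0.493 (3.21e-17). Cdkn1a, the cell cycle inhibitor p21, went the other way, with 0.395 with Arntl and -0.610 with Dbp (adjusted p = 1.70e-10 and 2.05e-28). Rgs16 fell with Arntl (-0.424), Lonrf3 rose with it (0.416), Noct (-0.196) and Cipc (-0.213) fell with it, and Avpr1a rose with it (0.275), all with adjusted p below 0.05. Above 212 alone Noct (0.146) and Cipc (0.0300) had the other sign, and the slope of Noct on Arntl differed between blocks (adjusted p = 0.00787). Tfrc passed with none of the 5 genes.

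**Figure D4:**
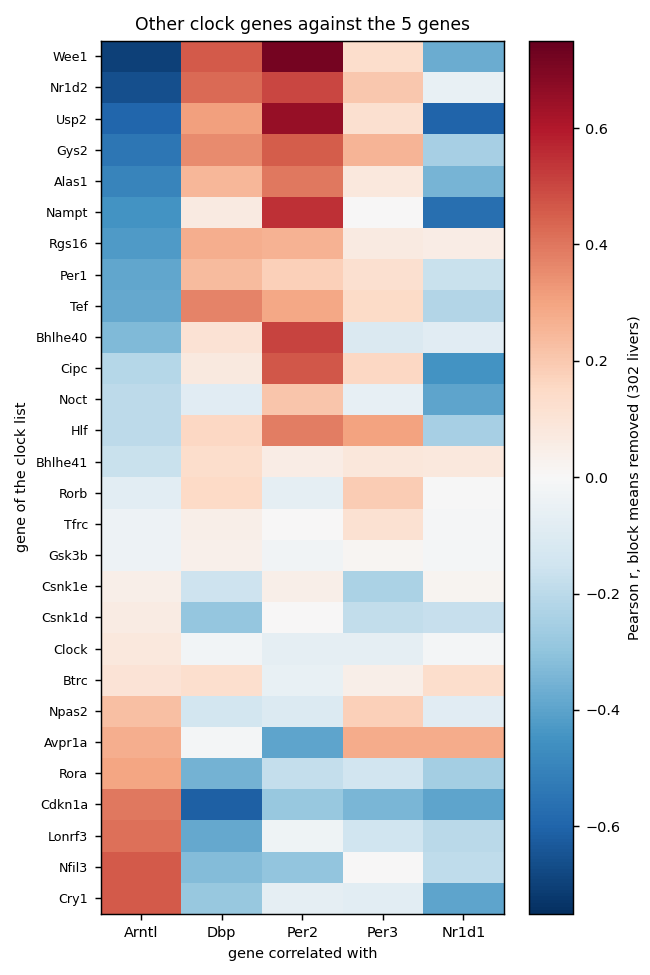
Pearson r, block means removed, of 28 genes of the clock list (rows, ordered by their r with Arntl) with each of the 5 genes (columns) over 302 livers; red is positive and blue negative. Wee1, Nr1d2 and Usp2 are blue with Arntl (-0.701, -0.661 and -0.594) and red with Per2, Cry1 and Nfil3 are red with Arntl (0.461 each), and the column of Nr1d1 is mostly blue.

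**Figure D5:**
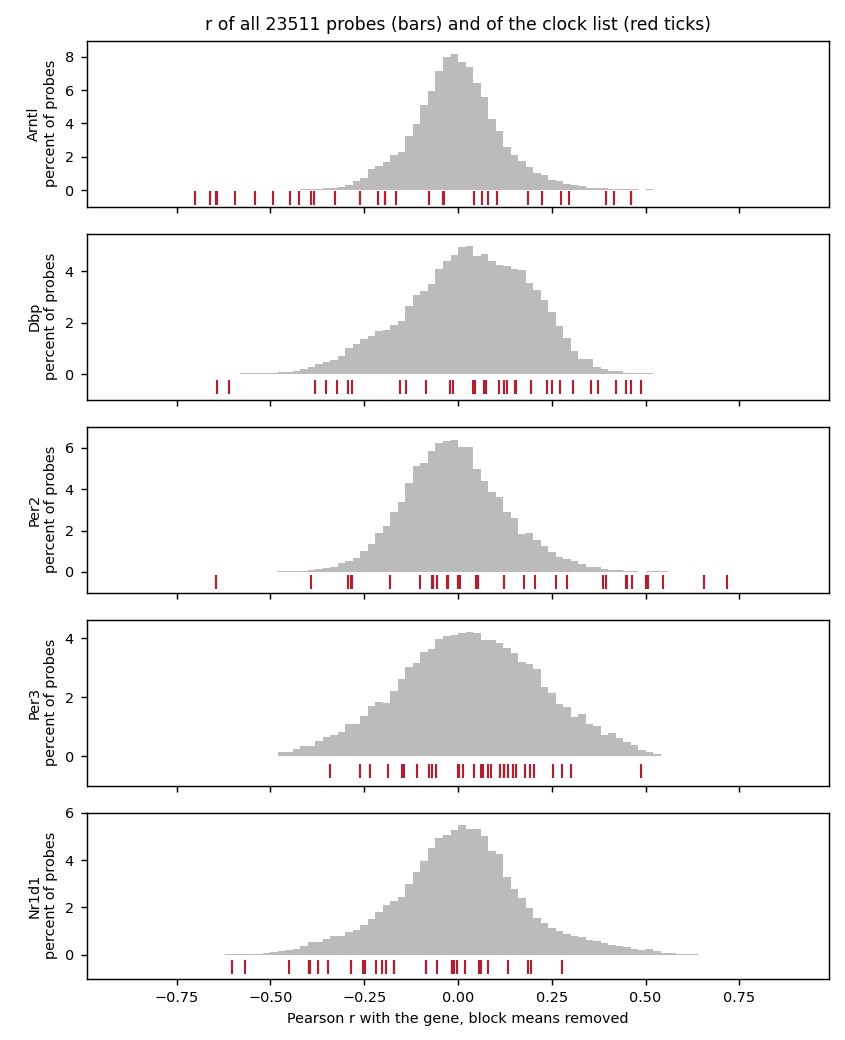
Share of 23511 probes (y axis, percent) by their Pearson r (x axis, block means removed) with each of the 5 genes (panels, each with its own y scale); red ticks mark the measured genes of the clock list. The ticks for Arntl spread from -0.701 to 0.461 beyond most of the grey bars, and those for Per3 lie mostly within the bars.

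The genes most like Arntl over the 302 livers were named by their block-centred r, without regard to function. The highest were Chka (choline kinase alpha, which starts the making of phosphatidylcholine; r = 0.808), Clpx (a subunit of the mitochondrial ClpXP protease; 0.695), Denn2b (0.685), Lrfn3 (0.674), Ankrd23 (0.637) and the monocarboxylate transporter Slc16a1 (0.627). Limma adjusted p ran from 1.62e-66 for Chka to 4.11e-31 for Slc16a1. The r of Chka was between 0.696 and 0.884 within blocks, and the other probe for Clpx had r = 0.762. The lowest were Wee1 and Nr1d2, both given above, then Usp2, the nicotinamide riboside kinase Nmrk1 (-0.562), the glutathione transferase Gstt2 (-0.554) and Gys2. Of 23511 probes, 35 (0.149%) had r of at least 0.5 with Arntl and 14 (0.0595%) of at most -0.5.

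Most like Per2 were Wee1 and Usp2, then Nhlrc2 (r = 0.629), the DNA polymerase Rev1 (0.628), Ngef (0.569) and the glucose transporter Slc2a2 (0.559). Most opposed to it were Irs2, a docking protein of the insulin receptor (-0.655), Slc16a1 (-0.600), Ubxn1 (-0.597), Adck5 (-0.553), Chka (-0.521) and the tight junction protein Cldn1 (-0.520). All 12 kept their sign in the 4 blocks, but the other probe for Irs2 had r = 0.0187 with Per2. The probe shown for a gene is the one with the wider SD. At least 0.5 was reached by 29 probes (0.123%) and at most -0.5 by 15 (0.0638%).

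Most like Dbp were Klf1 (r = 0.625), Ngef (0.578), Piwil1 (0.570), Polg2, the accessory subunit of the mitochondrial DNA polymerase (0.563), the transporter Slc22a4 (0.554) and Sipa1l2 (0.551, but -0.0279 for its other probe). Klf1 and Piwil1 are known from red cell precursors and the germ line. Most opposed to Dbp were Lrig2 (-0.632), Cdkn1a (-0.610), the ubiquitin ligase Nedd4l (-0.587), Chka (-0.586), the growth factor Pdgfc (-0.577) and Slc16a6 (-0.576). The sign held in the 4 blocks for all 12. At least 0.5 was reached by 16 probes (0.0681%) and at most -0.5 by 37 (0.157%), and the counts of moderate relations were far larger, with 45.1% of all probes called.

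Most like Nr1d1 were Rtn4rl1 (r = 0.697), Cxxc5 (0.688), the tight junction protein Cldn3 (0.681), Wrap73 (0.638), Zfp362 (0.631) and Crb3 (0.629, and 0.220 for its other probe). Most opposed were Dcun1d3 (-0.637), Thrsp, a gene of fat synthesis (-0.632), Nrg4, a growth factor of the neuregulin family (-0.605), Usp2, the sulfotransferase Sult1d1 (-0.599) and the mitochondrial ornithine carrier Slc25a15 (-0.578). These relations were wide, since 170 probes (0.723%) reached 0.5 and 69 (0.293%) reached -0.5. Nr1d1 itself drifted along the mouse numbers, and limma called 4534 probes higher and 4436 lower with it, against 2586 and 2342 with the mouse number as a covariate. In mice above 212 alone the counts were 888 and 742, beside 5146 and 4395 in mice up to 212 alone. The part of that drift in each relation was not tested.

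Most like Per3 were Dusp18 (r = 0.560), Hif3a (0.560), the cholecystokinin receptor Cckbr (0.545), the neutrophil elastase gene Elane (0.537), Olfr1006 (0.536) and Arhgap33 (0.535). Their SDs lay between 0.0299 and 0.0417, under the lower quartile of all probes, as did that of Per3. Most opposed were Acot9 (-0.534), P2ry14 (-0.532), Acot10 (-0.516), Lox, which cross-links collagen (-0.489), and the myeloid receptors Clec7a (-0.480) and Gpr65 (-0.480). At least 0.5 was reached with Per3 by 58 probes (0.247%) and at most -0.5 by 6 (0.0255%). Acot9 and Acot10 are closely related, so their probes may not be independent. Per3 also followed the first principal component of all probes, with r = -0.358, while the other genes had 0.0674 (Arntl), -0.120 (Dbp), -0.00725 (Per2) and 0.201 (Nr1d1), and the median absolute value of all probes was 0.207. Its rho with the SD of the array was 0.243, beside -0.124 for Per2 and 0.0465 to 0.0960 for the other 3. The part of either in the relations of Per3 was not tested.

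Markers of macrophages and stellate cells fell with Per3. Of 11 measured macrophage genes, 9 fell with Per3 and 0 rose (median r = -0.297, all probes 0.0330; 19.2% of all probes fell and 30.8% rose), among them C1qc (-0.367, adjusted p = 8.69e-10) and Csf1r (-0.315, adjusted p = 2.14e-07). With Arntl limma called 0 of the 11 (0 at an unadjusted p under 0.05; r from -0.0940 to 0.0684), and with Per2 also 0 (2 at an unadjusted p under 0.05; r from -0.0431 to 0.135). Of 7 measured stellate cell genes 7 fell with Per3 (median r = -0.281), among them Col1a2 (-0.387), and 6 fell with Dbp (median r = -0.192; 16.7% of all probes fell). With the first principal component as a covariate, 1 macrophage gene rose and 4 fell with Per3, and 6 of the 7 stellate genes still fell. The counts of all probes with Per3 stayed within the limit set for counts in that fit, as described further on. Hepatocyte genes gave 3 of 5 higher with Per3 and 0 lower, beside 30.8% and 19.2% of all probes. The part of these cells in the values of Per3 was not tested.

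Genes of fasting and glucocorticoid action fell with Nr1d1. Of 12 measured, 10 fell and 1 rose (median r = -0.283, all probes 0.00595; 18.9% of all probes fell and 19.3% rose), among them Lpin1, a phosphatidate phosphatase (-0.576, adjusted p = 1.99e-25), Ppargc1a, a coactivator of gluconeogenesis (-0.350, adjusted p = 6.14e-09), and Pck1, the enzyme that starts gluconeogenesis (-0.287, adjusted p = 3.54e-06). The gene that rose was Irs2 (0.204, adjusted p = 0.00163), which had r = 0.510 with Arntl. The other probe for Irs2 had r = 0.242 with Nr1d1 and 0.0288 with Arntl. With Dbp 8 of the 12 fell and 0 rose (16.7% and 28.3% of all probes), and with Arntl 2 fell and 1 rose (9.83% and 8.85%). In the mice above 212 alone 4 fell and 0 rose with Nr1d1, where far fewer of all probes were called with it too, as given above.

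Drug metabolism genes that are linked to the PAR bZIP factors were set against all 5 genes. Of 11 measured, 8 rose and 1 fell with Per2 (median r = 0.259, all probes -0.0150; 13% of all probes rose and 14.9% fell). With Nr1d1 9 fell and 0 rose (median -0.301; 18.9% and 19.3% of all probes). With Arntl 4 fell and 0 rose (median -0.134, all probes -0.00628; 9.83% and 8.85% of all probes). With Dbp 4 rose and 1 fell (median -0.0238, all probes 0.0351), close to the share of all probes called, 28.3% higher and 16.7% lower. The drug efflux pump Abcb1a had r = 0.439 with Per2 and -0.440 with Nr1d1. The drug receptor gene Nr1i3, or CAR, rose with Dbp (0.396, adjusted p = 7.68e-11) and with Per2 (0.248). With the mouse number as a covariate, 5 fell with Nr1d1, and fewer of all probes were called with it, as given above. Heat shock genes rose with Arntl in 5 of 9 cases and fell in 0 (median r = 0.153; 8.85% and 9.83% of all probes), with Hspb1 at 0.329 (adjusted p = 3.48e-07) and Hspa1a at 0.282, and fell with Dbp in 6 and rose in 0 (median -0.179; 16.7% and 28.3% of all probes). In the mice above 212 alone the median r of the heat shock genes with Arntl was 0.0536.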

How the data were processed

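Liver RNA of 302 mice was measured on 2-colour arrays, 1 per mouse, against a common pool. Per the labels, RNA came from spin columns with a DNAse step and was labelled by an automated aminoallyl amplification. The authors deposited log10 ratios, as read here from limits at -2 and 2 and from the Y-linked genes Eif2s3y and Kdm5d, whose medians of 0.195 and 0.181 in 160 mice lie nearest to the 0.276 that log10 of mouse over pool would give. How the spots were read and scaled is not given in the sources used here. Between arrays, r went down to -0.519, and 1035 of 45451 pairs lay under -0.3. The direction was kept, since the labels state the dyes and mice set against their own pool can oppose each other.

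Probes were named through the platform's annotation, updated through gene identifiers to GRCm38.p6. Of 23562 probes, 12652 were named, and 23512 with values in at least 90% of mice and in every block were used (0.0831% of values were missing). Relations were fitted in R 4.3.3 by limma 3.58.1 (two-sided) on 4 blocks, and p-values were adjusted over all probes by Benjamini-Hochberg at a threshold of 0.05. Permutation p-values used 100000 shuffles within blocks, and SD and r intervals 1000 draws of the mice with replacement. The fits were tested on simulated data. Precision is limited by the number of arrays.

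The 5 genes and the gene lists were chosen with earlier results of these data known. For each gene the 6 named genes with the highest and the 6 with the lowest r were named, predicted genes left out, together with the measured clock list and at most the 4 genes of each other list with the largest absolute r with Arntl. A gene with several probes is given by the one with the widest SD. Alternatives were no block, the Eif2s3y cluster alone as block, ranks, the mean of a gene's probes, the first principal component or the mouse number as a covariate, fewer arrays, either range of numbers, rescaled arrays, other probe filters, the median absolute deviation, numbers that differ by 2, and differences between neighbours.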

Additional observations from a re-analysis of the deposited data

Results flagged for a closer look

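For the relations listed here the slope differed between the 4 blocks by an F test of the block terms in the limma fit (adjusted over all probes). Block r values give the direction in each. The share of all probes with such a difference was 2.99% for Arntl, 8.0% for Dbp, 1.12% for Per2, 18.1% for Per3 and 7.8% for Nr1d1, so for Per3 it was common.

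Between Arntl and Nr1d1 (adjusted p = 0.0267 with Nr1d1 as the covariate), r was -0.0930 and 0.0365 in the blocks above 212 and 0.205 and 0.438 up to 212 (lower and upper Eif2s3y cluster). Wee1 on Arntl (adjusted p = 0.0228) ran from -0.792 to -0.369 within blocks, and Usp2 on Arntl (9.04e-06) from -0.803 to -0.106. Nmrk1 on Arntl (0.0149) ran from -0.649 to -0.498. Usp2 on Per2 (8.28e-05) ran from 0.239 to 0.828. Both relations of Usp2 were weakest in the lower Eif2s3y cluster above 212, and every block kept the sign.

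With Dbp, the slopes of Sipa1l2 (adjusted p = 0.0175; r 0.340 to 0.715), Cdkn1a (0.0487; -0.707 to -0.484) and Nedd4l (0.0299; -0.805 to -0.323) differed. With Nr1d1, those of Cxxc5 (0.00704; 0.522 to 0.834), Wrap73 (0.0478; 0.457 to 0.743), Crb3 (0.00166; 0.458 to 0.751), Nrg4 (2.39e-05; -0.791 to -0.244), Usp2 (0.00645; -0.700 to -0.523), Sult1d1 (0.000316; -0.714 to -0.418) and Slc25a15 (0.00245; -0.791 to -0.333) differed. None of these 10 relations changed sign in a block.

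With Per3, slopes differed for 6 genes that rose with it: Dusp18 (adjusted p = 0.00259; r 0.367 to 0.725), Hif3a (0.00550; 0.368 to 0.717), Cckbr (2.02e-06; 0.225 to 0.719), Elane (0.00415; 0.267 to 0.656), Olfr1006 (7.37e-05; 0.444 to 0.743) and Arhgap33 (0.000457; 0.369 to 0.645). They also differed for 4 that fell with it: Acot9 (0.0114; -0.738 to -0.414), Acot10 (0.0318; -0.713 to -0.404), Clec7a (0.0265; -0.618 to -0.364) and Gpr65 (0.0151; -0.696 to -0.359).

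Of the other clock genes, several changed sign between blocks. On Arntl these were Bhlhe40 (adjusted p = 0.0352; r -0.564 to 0.133), Bhlhe41 (0.0437; -0.430 to 0.0717), Hlf (0.0430; -0.466 to 0.0695) and Noct (0.00787; -0.479 to 0.188). On Dbp they were Noct (0.00115; -0.495 to 0.221) and Tfrc (0.0371; -0.210 to 0.342). On Nr1d1 they were Nr1d2 (0.0447; -0.278 to 0.275), Csnk1d (0.0379; -0.417 to 0.194) and Btrc (0.0294; -0.303 to 0.291). Slopes differed with the sign kept for Rora on Arntl (0.00699; 0.0340 to 0.539), Usp2 on Dbp (0.00366; 0.0809 to 0.570), Hlf on Per3 (0.00218; 0.0208 to 0.595), Avpr1a on Per3 (0.0206; 0.169 to 0.491), Cipc on Nr1d1 (0.0477; -0.638 to -0.248) and Cdkn1a on Nr1d1 (0.0119; -0.660 to -0.143).

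Of the genes of the other lists, fat and sterol genes differed in Insig2 on Arntl (adjusted p = 0.0115; r 0.463 to 0.720) and on Dbp (0.0244; -0.721 to -0.459), Elovl3 on Arntl (0.00235; -0.0236 to 0.624) and on Per2 (0.00803; -0.619 to 0.0350), and Ppara on Arntl (0.0386; -0.599 to 0.106). Fasting genes differed in Lpin1 on Nr1d1 (4.83e-05; -0.787 to -0.259) and on Per2 (0.0233; -0.234 to 0.406), Ppargc1a on Dbp (0.0114; -0.489 to 0.0433) and Tat on Per2 (0.0432; -0.385 to 0.102). Heat shock genes differed in Hsph1 (0.0239; -0.159 to 0.410) and Dnajb1 (0.0348; -0.175 to 0.361) on Arntl, Dnajb1 on Dbp (0.0456; -0.405 to 0.153) and Hspb1 on Per3 (0.0439; -0.488 to 0.105). Immediate early genes differed in Jun (0.0479; -0.359 to 0.270) and Ier3 (0.00111; -0.575 to 0.0514) on Arntl, Ier3 on Per2 (0.0171; -0.0108 to 0.499) and Myc on Per3 (0.0377; -0.459 to 0.0369). The transporter Slco1b2 differed on Per3 (0.0233; -0.115 to 0.358) and on Nr1d1 (0.0222; -0.412 to 0.106), as did Ttr (0.00433; -0.147 to 0.443) and Rgs5 (0.00104; -0.488 to 0.272) on Nr1d1, Krt23 on Dbp (0.0490; -0.197 to 0.363), and Ltf (0.00613; 0.149 to 0.683) and Lep (1.55e-05; 0.198 to 0.623) on Per3.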

How the results depend on the processing

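The alternatives gave 420 values for the spread, pairs, counts of probes, bends, number ranges, slopes and neighbours. Of these, 363 kept their side of the threshold, or stayed within the limits set for counts and SDs. A change of sign was counted only where either value passed, so Per3 and Nr1d1 (0.0607 as reported, -0.0131 without blocks) were not counted. Some of the 363 were fixed in advance. Each of the 5 genes had 1 probe, so a mean over probes left their r, slopes and SDs unchanged. The filter at 50% of values kept the same 23512 probes, so its 10 counts could not move. The remaining values follow. Unless an alternative's own make-up shows it, the cause was not tested. The pair of Arntl and Nr1d1 was the least stable, with r = 0.188 as reported, 0.0931 without blocks, 0.0939 with the Eif2s3y cluster as the only block and 0.106 with the mouse number as a covariate, none of which passed. It turned to -0.0146 in mice above 212 and to -0.0573 for differences between neighbours. The differences between neighbours and the mouse number were alternatives chosen after seeing the data.

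For differences between neighbours, Dbp and Nr1d1 (0.180) and Per2 and Nr1d1 (-0.206) no longer passed, on fewer values. In mice above 212, Arntl and Per3 (-0.187) no longer passed. Per2 and Per3 passed with the Eif2s3y cluster alone (0.149), the mouse number (0.159) and rescaled arrays (0.167). Per3 and Nr1d1 passed with ranks (0.133) and with the first principal component (0.145). The slope of Per3 on the number passed with rescaled arrays (-0.00880), without 6 arrays of wide SD (-0.00995) and with the component (-0.0159), as did that of Dbp with the component (-0.0205). Neighbours were alike in Per3 with rescaled arrays (0.150) and without wide arrays (0.150). The square of Arntl in the fit of Nr1d1 was -0.517 with the component and -0.556 without wide arrays, neither passing. By the median absolute deviation the spread of Arntl was 0.228 and that of Nr1d1 0.162.

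Upward and downward bends on Arntl, 696 and 547 probes as reported, were 0 and 0 with the component (limma; 1395 at an unadjusted p under 0.05) and 178 and 281 with rescaled arrays, and upward ones 461 without wide arrays. Slopes that differed between blocks were found in 1131 probes for Dbp and 144 for Per2 with the component (1881 and 263 as reported), in 388 for Arntl, 102 for Per2 and 1005 for Per3 with rescaled arrays (703, 263 and 4259), and in 2557 for Per3 without wide arrays. With rescaled arrays 4657 probes ran with Per3, not 7241. In mice above 212 probes ran with and against Arntl in 1213 and 1520 cases, Per2 in 1753 and 2067, Nr1d1 in 888 and 742, and with Per3 in 4823. In mice up to 212, 1287 ran against Arntl, 2053 against Per2 and 4154 with Dbp. With the mouse number, 2586 ran with and 2342 against Nr1d1. Among named probes only, which are fewer, the counts with and against were 1245 and 1204 for Arntl, 3585 and 2353 for Dbp, 1714 and 1958 for Per2, 3788 and 2670 for Per3 and 2604 and 2439 for Nr1d1.

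A further 3920 values were recomputed for single named genes and for the counts of the gene lists. Of these, 388 list counts moved beyond the limit set for counts, and 8 values of single genes changed sign where either value passed. In mice above 212 these were Noct (0.146) and Cipc (0.0300) with Arntl, Npas2 (0.122) and Hlf (-0.0978) with Dbp, and Per1 (-0.0580) and Noct (-0.0312) with Per2. With the component they were Cipc (-0.0205) and Nampt (-0.147) with Per3. A further 85 no longer passed and 51 newly passed. A fit with a replicate number as a block could not be made, since each mouse has a number of its own, and the only pairing tried was that of 131 pairs of neighbours, given above. No signal over background was given, so how far dim spots limit Per3 could not be judged.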

Other observations

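Genes of bile acid, sterol and fat metabolism were also set against the 5 clock genes. Among bile acid genes, Cyp8b1, which makes the precursor of cholic acid, rose with Arntl (r = 0.493, limma adjusted p = 2.96e-17) and fell with Per2 (-0.309), and the bile acid receptor gene Nr1h4 did the opposite (-0.306 and 0.371). Of the 8 measured, 2 rose and 2 fell with Arntl (median r = 0.0140), beside 8.85% and 9.83% of all probes. Among 12 sterol genes 1 rose and 4 fell with Arntl (median -0.0540). The one that rose was Insig2, which retains the sterol sensor in the endoplasmic reticulum (0.542), and it fell with Dbp (-0.556) and Per2 (-0.458). Fdft1, the squalene synthase, fell with Arntl (-0.348) and rose with Per2 (0.426).

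Of 13 lipogenic genes 1 rose and 3 fell with Arntl and 1 rose and 4 fell with Nr1d1. Thrsp had r = -0.391 with Arntl and 0.502 with Per2, and Elovl3, which lengthens fatty acids, had 0.328 and -0.370. Of 11 genes of fatty acid oxidation 3 rose and 2 fell with Arntl. The fasting hormone Fgf21 rose with Arntl (0.329) and fell with Per2 (-0.335), and its regulator Ppara did the reverse (-0.325 and 0.528). Background shares for these counts are those given for each gene in the report.

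Immediate early genes gave 2 of 12 lower with Arntl, and mitotic genes gave 1 of 9 higher with Arntl. With Per3, 6 of the 9 mitotic genes were lower and 1 higher, beside 19.2% and 30.8% of all probes. With Arntl 8.85% of all probes were called higher and 9.83% lower, 18.7% in all. The counts with Arntl in this paragraph lie near or under that share. Among markers of other cells, Arntl was called with 1 of 8 endothelial genes (Stab2, -0.187) and 1 of 5 hepatocyte genes (Ttr, 0.214). Limma called 0 of the measured genes of the stellate (7), red cell (6), bile duct (4), exocrine pancreas (4), neutrophil (7), lymphocyte (8) and fat cell (5) lists with Arntl. At an unadjusted p under 0.05 they gave 1 stellate gene, 2 neutrophil genes and 0 of the others.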
